A study of Mus musculus with 8 samples.

Results

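The miR-15/16 family is a group of miRNAs that begin with nearly the same bases. Its members were taken by name, as the sequences annotated only to mmu-mir-15a, mmu-mir-15b, mmu-mir-16, mmu-mir-195a, mmu-mir-322 or mmu-mir-497a. These are 6 of the 752 miRNA names with reads, and 274 of 12695 distinct miRNA sequences. Small RNA of mature sperm from the caudae epididymides was sequenced in 4 activated and 4 control samples. Activated mice carried Agrp Cre/+ and controls Agrp +/+, both bred from a Jackson Laboratory line whose strain background is not given in the sources used here. All had AAV hSYN-DIO-hM3D(Gq)-mCherry injected into the arcuate nucleus on both sides at 8 weeks of age, a Cre-dependent virus coding for an excitatory receptor that answers to CNO. After 3 weeks, food was removed for 1 h, every mouse received CNO at 1 mg/kg, and sperm was collected 4 h later. The receptor can therefore form only where the Agrp promoter drives Cre, in AgRP neurons, and no group without CNO was analysed here. The comparison asks whether activating these hunger neurons goes with a different level or form of the family in sperm.

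A miRNA guides an Argonaute protein to messenger RNAs that pair with its seed, the bases 2 to 8 counted from its 5′ end. The miR-15/16 family is known for repressing genes of the cell cycle and of cell survival, among them cyclins and Bcl2, and its members lie in small clusters that are transcribed together. Mature sperm transcribes little, and its small RNAs are known to come from spermatogenesis and from vesicles of the epididymis. miR-16 is also abundant in blood cells, which makes the purity of a sperm sample relevant to its level.

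The mature 5p sequences, from RefSeq on GRCm38.p6, are shown because the shared seed defines the family and the 3′ ends carry the differences described further on. Capitals mark the seed.
mmu-mir-15a: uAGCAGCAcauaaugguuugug
mmu-mir-15b: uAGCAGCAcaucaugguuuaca
mmu-mir-16: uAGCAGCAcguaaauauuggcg
mmu-mir-195a: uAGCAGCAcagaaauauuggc
mmu-mir-322: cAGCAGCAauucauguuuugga
mmu-mir-497a: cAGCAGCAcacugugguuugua
All 6 had the seed AGCAGCA. mmu-mir-322 and mmu-mir-497a begin with another base than the other 4, outside the seed. mmu-mir-16 and mmu-mir-195a were the most alike, with 19 of 21 compared bases identical, and mmu-mir-16 and mmu-mir-497a shared 11 of 22.

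The hairpins lie on chromosomes 3, 11, 14 and X of GRCm38. Mir15b (chr3:69009772-69009835) and Mir16-2 (chr3:69009902-69009996) are 66 bases apart on the plus strand in an intron of Smc4, which codes for a condensin subunit. Mir16-1 (chr14:61631880-61631972) and Mir15a (chr14:61632027-61632110) are 54 bases apart on the minus strand within the long noncoding gene Dleu2. Mir15a is in an intron there, and Mir16-1 overlaps an exon of at least 1 Dleu2 transcript. Mir497 (chr11:70234717-70234800) and Mir195a (chr11:70235042-70235135) are 241 bases apart on the plus strand and overlap no host gene in the annotation. Mir322 (chrX:53054255-53054349) lies on the minus strand, 200 bases from Mir503.

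Libraries held 14903635, 17489698, 14757501 and 9409491 reads in activated replicates 1 to 4, and 12421068, 23123740, 9297271 and 14348060 in control replicates 1 to 4. Reads annotated as miRNA made up between 17.8% and 47.1% of a library. Levels are given as RPM, reads scaled to the total of the library. In bulk RNA, fewer cells of a type and less RNA per cell cannot be told apart.

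Control replicate 4 stood apart from the other libraries in markers of other cells. The muscle and vessel list (mir-143, mir-145a, mir-1a, mir-133a and mir-126a, with reads for 5 of its 7 names, and none under the names mir-145 and mir-126) summed to 36472 RPM in that library and to between 180 and 524 RPM in the other 7. mmu-mir-145a reached 17715 RPM there against at most 123 RPM elsewhere, and mmu-mir-143 reached 17171 RPM against at most 332 RPM. The epithelial list of 7 miRNAs, all with reads, summed to 19420 RPM in control replicate 4 and to between 1085 and 3476 RPM in the others. mmu-mir-200c led this list in 5 libraries, and mmu-mir-141 in activated replicates 1 and 4 and control replicate 2. The fold changes of the members and some other values are therefore also given without this library.

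Germ cell markers were plentiful in every library. All 11 miRNAs of the sperm and testis list had reads, and the list summed to 48606, 35468, 28825 and 46723 RPM in activated replicates 1 to 4 and to 30791, 41453, 22964 and 35831 RPM in control replicates 1 to 4. mmu-mir-34b exceeded mmu-mir-34c in 5 libraries, and mmu-mir-34c was higher in activated replicates 1 and 4 and control replicate 2. The erythrocyte list, led by mmu-mir-451a except in control replicate 4, summed to 298, 83.5, 113 and 84.1 RPM in the activated and to 235, 532, 976 and 659 RPM in the control libraries. The leukocyte list, led by mmu-mir-142a, summed to 862, 398, 655 and 581 RPM in the activated and to 343, 454, 295 and 553 RPM in the control libraries. Of their 5 names each, mir-486 and mir-142 had no reads under that spelling. The part of these cells in the levels of the family was not tested.

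The family was a large share of sperm miRNA. Its summed reads made up 38.6%, 37.4%, 31.9% and 37.5% of miRNA reads in activated replicates 1 to 4, and 35.5%, 39.7%, 27.8% and 26.8% in control replicates 1 to 4. mmu-mir-16 was the most abundant miRNA in 6 of 8 libraries and followed mmu-mir-191 in the remaining 2, activated replicate 3 and control replicate 3. mmu-mir-15b had rank 3 in every library. For comparison, the let-7 family summed to a median of 13211 RPM, against 117275 RPM for the miR-15/16 family. A list of 9 miRNAs, called the miR-17 list here, summed to a median of 9194 RPM. It was set by name, not by seed, and held mir-17, mir-18a, mir-19a, mir-19b, mir-20a, mir-92a, mir-106b, mir-93 and mir-25.

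mmu-mir-16, the family's most studied member, stood at 122315, 83376, 52281 and 111508 RPM in activated replicates 1 to 4 and at 66426, 109816, 34644 and 102171 RPM in control replicates 1 to 4. The groups overlapped, and the lowest libraries of both were replicates 3. The means were 92370 ± 31363 RPM (SD, n = 4) in the activated and 78264 ± 34689 RPM (SD, n = 4) in the control group. mmu-mir-15b, its partner in the Smc4 intron, stood at 20393, 22898, 19898 and 26160 RPM in the activated and at 24362, 19310, 14149 and 21622 RPM in the control libraries. It varied least among the members, and again the groups overlapped.

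mmu-mir-195a measured 1798, 1121, 646 and 1708 RPM in the activated and 789, 1439, 419 and 1677 RPM in the control libraries. mmu-mir-15a measured 1394, 682, 435 and 941 RPM in the activated and 530, 953, 285 and 752 RPM in the control libraries. Neither separated the groups, and control replicate 3 was the lowest library for both. mmu-mir-497a, the neighbour of mmu-mir-195a, was at 114, 62.2, 41.2 and 108 RPM in the activated and at 54.4, 78.6, 30.3 and 96.2 RPM in the control libraries. mmu-mir-322, the mouse counterpart of human miR-424, was at 47.3, 19.4, 17.3 and 22.8 RPM in the activated and at 13.9, 29.5, 9.36 and 71.9 RPM in the control libraries. Its highest value came from control replicate 4, the library rich in muscle and epithelial markers.

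The order of the means was mmu-mir-16, mmu-mir-15b, mmu-mir-195a, mmu-mir-15a, mmu-mir-497a and mmu-mir-322, and each miRNA exceeded the next within all 8 libraries. The closest neighbours were mmu-mir-195a and mmu-mir-15a, with a ratio between 1.29 and 2.23 within a library, and mmu-mir-497a and mmu-mir-322, with a ratio between 1.34 and 4.73. Over libraries, the ranges of both of these pairs overlapped. Reads of different miRNAs also carry differences in how well each sequence enters a library, so that the order is one of reads.

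**Figure D1:**
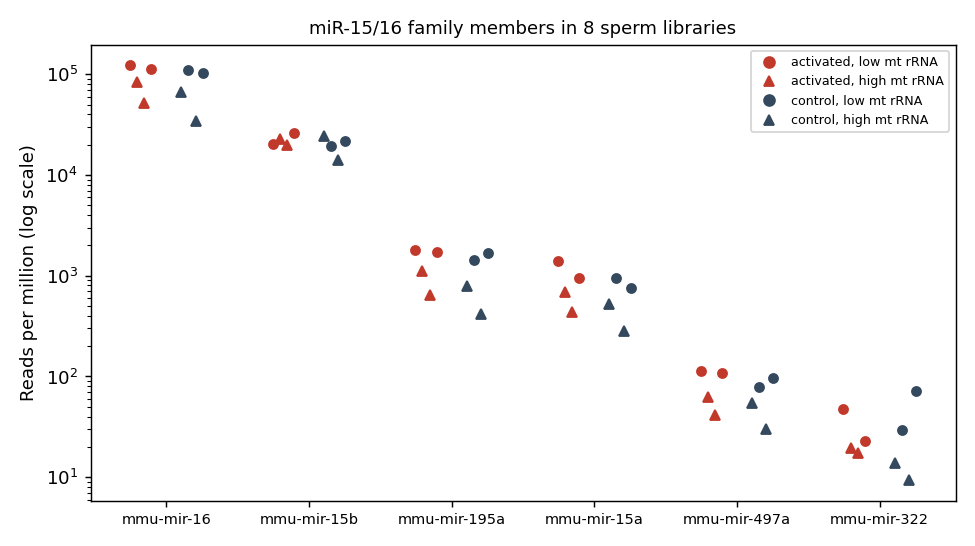
RPM (log scale) of each family member in each library, with activated libraries in red, controls in dark blue, circles for libraries low in mitochondrial rRNA and triangles for those high in it. The groups overlap for all 6 members, and the triangles of mmu-mir-16, between 34644 and 83376 RPM, all lie under its circles.

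None of the 6 members was called between activated and control mice. The test was edgeR's quasi-likelihood test over 587 RNA species, of which 0 (0%) had an adjusted p under 0.05. Without adjustment, 10 species were higher and 38 lower at p under 0.05, and no member was among these. DESeq2 called 3 of 587 (0.511%), none of them a member. The log2 fold change of mmu-mir-16 was 0.21 with a standard error of 0.38 (edgeR adjusted p = 0.758), and that of mmu-mir-15b 0.20 with a standard error of 0.24 (edgeR adjusted p = 0.682). For mmu-mir-15a it was 0.41 with a standard error of 0.40 (edgeR adjusted p = 0.671). mmu-mir-195a had 0.23 and mmu-mir-497a 0.27, while mmu-mir-322 had -0.32 with a standard error of 0.63. The median over the 273 miRNA species tested was 0.15, with 167 above and 106 below 0. The 5 positive values of 6 thus had the direction that most miRNA species had. With standard errors of this size, a lack of calls does not show that the levels were equal. In simulated data, edgeR found most planted log2 fold changes of 2 among RNA species, and smaller ones were not planted.

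Without control replicate 4, the log2 fold change of mmu-mir-322 turned to 0.62 (edgeR adjusted p = 0.443, between 0.443 and 0.958 over all alternatives), and those of mmu-mir-16, mmu-mir-15b, mmu-mir-15a, mmu-mir-195a and mmu-mir-497a were 0.44, 0.31, 0.57, 0.61 and 0.60. The median of all species moved to 0.10 from -0.07. Without control replicate 3, the values of mmu-mir-16 and mmu-mir-195a turned to -0.028 and -0.021, and those of mmu-mir-15b, mmu-mir-15a, mmu-mir-497a and mmu-mir-322 were 0.067, 0.17, 0.045 and -0.59. The direction of mmu-mir-322, mmu-mir-16 and mmu-mir-195a thus depended on single libraries, and the size on single libraries in all 6.

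**Figure D2:**
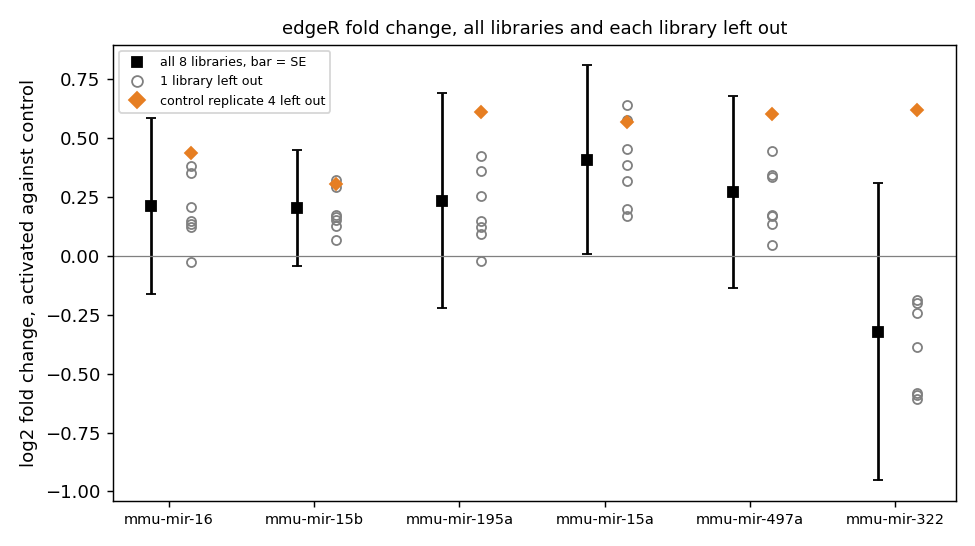
log2 fold change of each member, activated against control, from edgeR with all 8 libraries (black squares, bars give the standard error) and with each library left out in turn (open circles, orange diamonds for control replicate 4). mmu-mir-322 moves from -0.32 to 0.62 without control replicate 4, and mmu-mir-16 and mmu-mir-195a reach -0.028 and -0.021 without control replicate 3.

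Two-sided exact permutation tests of RPM gave p-values between 0.4 and 0.8 for the 6 members, with adjusted p between 0.902 and 0.95 over all 273 miRNA species. With 4 libraries a group, the smallest p such a test can give is 0.0286. No member had groups that did not overlap, against 6 of 273 miRNA species (2.2%). As a percentage of miRNA reads, mmu-mir-16 was 28.4% ± 4.05 (SD, n = 4) in the activated and 24.9% ± 6.0 (SD, n = 4) in the control libraries. The lowest exact permutation p of a member on this scale was 0.257, for mmu-mir-195a and mmu-mir-497a (adjusted p = 0.688).

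Single sequences were tested as well. The commonest sequence of mmu-mir-16 was the annotated mature form and made up 70.04% of its reads. It stood at 64020 ± 20724 RPM (SD, n = 4) in the activated and at 55377 ± 24726 RPM (SD, n = 4) in the control libraries. Of the 46 family sequences that passed the count minimum, edgeR called 0, with 42 higher and 4 lower, while it called 61 of all 12077 sequences (0.505%), all higher. The number called was 58 without control replicate 1, 30 without activated replicate 2 and 0 without any of the other libraries. DESeq2 called 248 of the 12077 (2.05%), with 196 higher and 52 lower, again with no family sequence among them. Without adjustment, 377 of all sequences were higher and 497 lower at p under 0.05, none of them a family sequence. The 42 to 4 split depended on single libraries, with 19 higher and 23 lower of 42 without activated replicate 1 and 31 higher and 15 lower without control replicate 3. Without control replicate 4 it was 43 higher and 0 lower of 43. The median log2 fold change of all 12077 sequences was 0.014. Of the 46, 1 had groups that did not overlap, against 481 of 12077 (3.98%).

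None of the family sequences stood out. The 3 with the lowest unadjusted p in the edgeR test had 0.181, 0.388 and 0.418, with adjusted p of 0.985, 0.999 and 0.999. They are printed with bases 2 to 8 of the read in capitals.
mmu-mir-15b, 20 nt: aGCAGCACatcatggtttac
mmu-mir-15a, 23 nt: tAGCAGCAcataatggtttgtgg
mmu-mir-16, 24 nt: cTTAGCAGcacgtaaatattggcg
The first lacks the first base of the mature miRNA. It was the one sequence without overlap, at 7.25, 8.58, 8.74 and 9.56 RPM in the activated and 6.52, 4.32, 5.92 and 6.41 RPM in the control libraries, and its log2 fold change was 0.48 (edgeR adjusted p = 0.985). It made up 0.0331% of the reads of mmu-mir-15b.

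The members differed in where their reads ended. The commonest length was 22 nt for mmu-mir-16, mmu-mir-15b, mmu-mir-195a and mmu-mir-322 and 21 nt for mmu-mir-15a and mmu-mir-497a, in all 8 libraries. For 3 members the commonest sequence was not the annotated one. These are shown because their 3′ ends differ from those of the mature sequences printed above, with the seed in capitals.
mmu-mir-15a, 21 nt: tAGCAGCAcataatggtttgt
mmu-mir-195a, 22 nt: tAGCAGCAcagaaatattggca
mmu-mir-497a, 21 nt: cAGCAGCAcactgtggtttgt
The form of mmu-mir-15a is 1 base shorter than the annotated one and made up 76.0% of its reads. That of mmu-mir-195a is 1 base longer and made up 57.7%, and that of mmu-mir-497a is 1 base shorter and made up 66.0%. The exact mature sequence was 8.45% ± 1.14 (SD, n = 8) of 5p reads for mmu-mir-15a, 32.3% ± 2.53 (SD, n = 8) for mmu-mir-195a and 70.1% ± 1.17 (SD, n = 8) for mmu-mir-16. The median over 105 miRNA species was 36.5%.

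The 5′ end, which sets the seed, was nearly fixed in 5 members. At least 95.7% of 5p reads began at the annotated base in every library for the 5 members with enough reads, and for mmu-mir-16 at least 99.68% did. The groups overlapped for all 5, against 3 of 105 miRNA species (2.86%) whose groups did not. mmu-mir-322 was left out of this test because control replicate 3 held 49 of its 5p reads, under the minimum of 50. Over all libraries, 93.1% of its 5p reads began at the annotated base and 6.67%, or 184 of 2759, began 1 base before it, which shifts the seed. Nearly all reads of the other 5 came from the 5p arm, and no member separated the groups in this share, against 2 of 105 miRNA species (1.9%). There were 10252422 5p and 1905 3p reads for mmu-mir-16. mmu-mir-322 differed, with 3p reads between 10.8% and 43.7% of its arm reads.

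**Figure D3:**
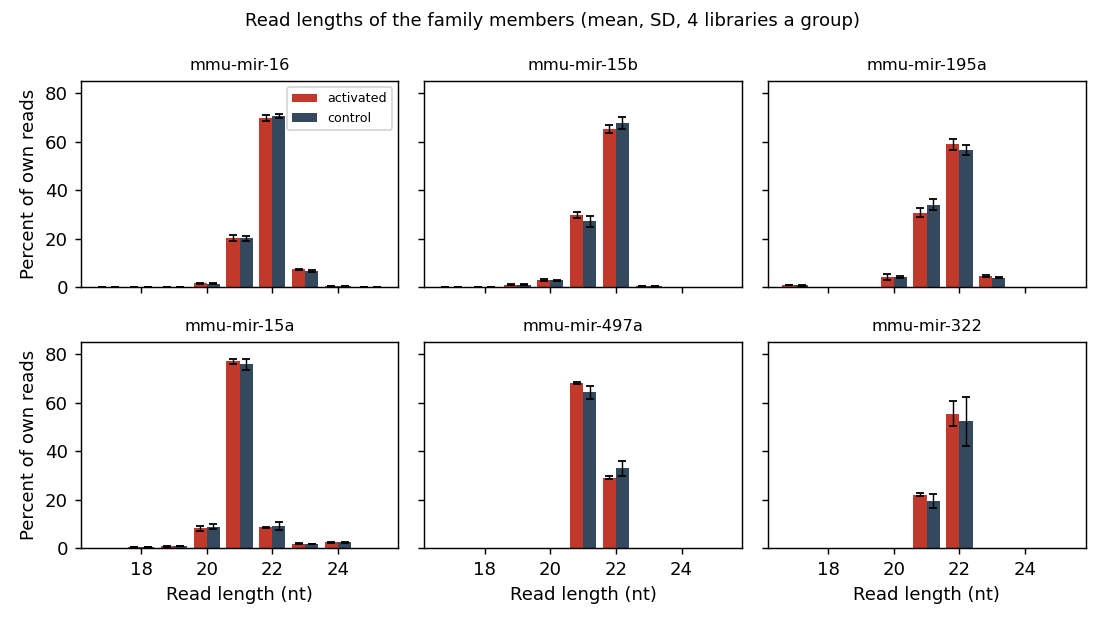
Percent of each member's own reads at each length (nt), mean and SD of the 4 activated (red) and 4 control (dark blue) libraries, for lengths that passed the count minimum. mmu-mir-15a and mmu-mir-497a peak at 21 nt and the other 4 members at 22 nt.

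In the shares of the exact mature sequence and of single lengths, groups without overlap were found for mmu-mir-497a and mmu-mir-16, and none passed adjustment. The exact mature sequence of mmu-mir-497a made up 27.5%, 29.0%, 28.5% and 28.6% of 5p reads in the activated and 29.1%, 30.1%, 31.4% and 35.9% in the control libraries (two-sided exact permutation test, p = 0.0286, adjusted p = 0.72 over 105 miRNA species). The groups did not overlap, which held for 1 of the 5 members and for 3 of 105 miRNA species (2.86%). Without control replicate 4, the highest of these, the difference was -1.86 percentage points in place of -3.28. The fewest 5p reads of mmu-mir-497a behind such a share were 608 in the activated and 280 in the control libraries, both in replicates 3. By length, 3 of 32 pairs of member and length did not overlap as a percentage of own reads, against 21 of 764 pairs (2.75%). They were mmu-mir-497a at 21 nt and 22 nt and mmu-mir-16 at 23 nt, where activated libraries held 7.45% ± 0.204 (SD, n = 4) and control libraries 6.78% ± 0.329 (SD, n = 4) of its reads (exact permutation test, p = 0.0286, adjusted p = 0.891). For mmu-mir-497a, nearly all reads had 21 or 22 nt and the exact mature sequence has 22 nt, so its 3 shares without overlap are the same observation. In RPM, none of the 32 pairs separated the groups, against 10 of 764 (1.31%).

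The 2 hairpins of mmu-mir-16 give the same mature 5p sequence, so that most reads cannot be given to either. Between 99.3% and 99.5% of its reads were annotated to both. Of the 5p reads, 53036 were annotated to Mir16-1 alone and 2152 to Mir16-2 alone. All 1905 3p reads placed on an annotated arm matched the 3p sequence of Mir16-2.

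Many family reads carried bases that the genome does not hold. These tailed reads match no genome site and consist of an annotated family read of at least 19 nt plus 1 to 3 further bases. A tail base that happens to match the genome cannot be seen this way. The deposited annotation gives 967897 of the 971647 tailed family reads the label piRNA, so that they are outside the levels given above. The commonest tailed sequence of 3 members is printed with the tail in capitals.
mmu-mir-16: tagcagcacgtaaatattggcgA
mmu-mir-15a: tagcagcacataatggtttgtgT
mmu-mir-322: cagcagcaattcatgttttggaT
These stood at 4398 ± 1729 RPM, 175 ± 98.8 RPM and 10.8 ± 4.56 RPM (SD, n = 8).

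The share of reads seen as tailed was taken for each member. Over the 8 libraries, 52.8% ± 7.42 (SD, n = 8) of mmu-mir-322 reads were tailed, 26.7% ± 2.42 of mmu-mir-15a, 19.7% ± 2.06 of mmu-mir-497a, 9.47% ± 0.985 of mmu-mir-195a, 7.01% ± 0.733 of mmu-mir-16 and 5.64% ± 0.358 of mmu-mir-15b. The median of 168 miRNA species was 18.5%. For mmu-mir-16, A tails were seen on 6.53% ± 0.708 (SD, n = 8) of reads and U tails on 0.18% ± 0.0142 (SD, n = 8). A U added to its mature form matches the genome at both loci, where the form ending in that base made up 7.14% of its reads. A U tail on that form would therefore not be seen, which also holds for a U on the mature form of mmu-mir-15b and an A on that of mmu-mir-195a. The latter sequence was the commonest of mmu-mir-195a, at 57.7% of its reads. The tailed shares thus miss tails to an extent that differs between members. A read error in the last 1 to 3 bases of a longer family read would in turn be counted as a tail, which was not tested. Neither the order of the tailed shares nor the A and U shares of a member can therefore be compared. mmu-mir-15a, from the same cluster as Mir16-1, had seen tails of U and of A on 18.8% ± 2.59 and 6.61% ± 0.346 of its reads (SD, n = 8). C tails made up 0.0637% and G tails 0.00474% of mmu-mir-16 reads.

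Between groups, the share of A tails of mmu-mir-15a was 6.84%, 6.94%, 6.61% and 7.07% in the activated and 6.31%, 6.01%, 6.49% and 6.58% in the control libraries (two-sided exact permutation test, p = 0.0286, adjusted p = 0.711 over 168 miRNA species). The share of U tails of mmu-mir-16 that could be seen was 0.193% ± 0.00672 (SD, n = 4) in the activated and 0.168% ± 0.00517 (SD, n = 4) in the control libraries (exact permutation test, p = 0.0286, adjusted p = 0.533). In each of these the groups did not overlap, as for 6 of 168 miRNA species (3.57%) with A tails and 9 of 168 (5.36%) with U tails. The share of G tails of mmu-mir-16 that could be seen was 0.00403% ± 0.000278 (SD, n = 4) in the activated and 0.00545% ± 0.00132 (SD, n = 4) in the control libraries. These groups also did not overlap, as for 2 of 168 miRNA species (1.19%). Without control replicate 3 the difference in G tails was -0.000775 percentage points in place of -0.00141. That library held 322091 mmu-mir-16 reads and a G tail share of 0.00737%, so that its share rests on few reads. No member separated the groups in C tails, against 1 of 168 (0.595%). None of these passed adjustment. The tail shares were examined after seeing the data.

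**Figure D4:**
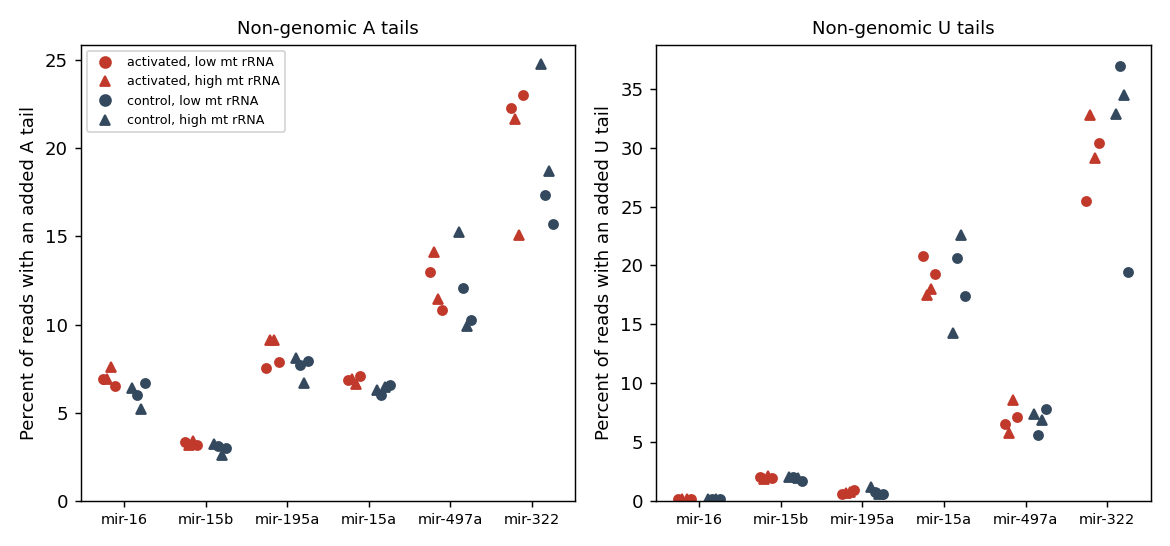
Percent of each member's reads with an added A tail (left) or U tail (right) that the genome does not hold, 1 point per library, activated in red and control in dark blue, circles low and triangles high in mitochondrial rRNA. U tails seen average 18.8% for mmu-mir-15a, 30.2% for mmu-mir-322 and 0.18% for mmu-mir-16. Tail bases that match the genome, such as a U on the mature form of mmu-mir-16 or an A on that of mmu-mir-195a, are not counted, so that members cannot be compared.

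Tailed miRNA reads were a sizeable part of what the deposited files call piRNA. Tailed reads of the family made up between 5.97% and 13.8% of the piRNA-labelled reads of at least 20 nt without a genome match. Those of all miRNAs made up between 45.8% and 60.0% of them, and between 23.7% and 35.1% of all piRNA-labelled reads.

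Neighbours and relatives of the family were also not called. Of the 5 chromosome X neighbours of mmu-mir-322, all had reads, 1 passed the count minimum and 0 were called. This was mmu-mir-450a, at 15.8 ± 9.04 RPM in the activated and 12.6 ± 5.95 RPM (SD, n = 4) in the control libraries. mmu-mir-503, which shares 6 of the 7 seed bases, lay between 0.215 and 3.11 RPM. mmu-mir-351 stood at 14.6 RPM in control replicate 4 and at no more than 3.66 RPM elsewhere, while mmu-mir-542 and mmu-mir-450b stayed at or under 2.79 RPM. mmu-mir-497b, antisense to Mir497, had 8 reads in all, and mmu-mir-195b had none of its own. mmu-mir-103 was at 857 ± 204 RPM in the activated and 704 ± 319 RPM (SD, n = 4) in the control libraries, and mmu-mir-107 at 5.59 ± 2.07 RPM and 8.63 ± 10.96 RPM (SD, n = 4), and edgeR called neither. Control replicate 4, at 25.0 RPM, carried the control mean of mmu-mir-107, with the other control libraries between 1.94 and 4.02 RPM and the activated libraries between 2.98 and 7.92 RPM. For comparison, edgeR called 0 of 10 let-7 species and 0 of 9 species of the miR-17 list. Their median log2 fold changes were -0.87 and 0.29, beside 0.15 for all 273 miRNA species. The let-7 sum was 39892 RPM in control replicate 4 and at most 20905 RPM elsewhere.

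Over the 8 libraries, the miRNAs outside the family most like mmu-mir-16 by Pearson's r of log2 RPM were mmu-mir-194 (0.996), mmu-mir-463 (0.992), mmu-mir-17 (0.99), mmu-mir-467c (0.99) and mmu-mir-147 (0.987). As log2 percent of miRNA reads they were mmu-mir-194, mmu-mir-463, mmu-mir-147, mmu-mir-471 and mmu-mir-881, from 0.979 to 0.909. Within the family, r of log2 RPM was 0.989 for mmu-mir-195a, 0.972 for mmu-mir-497a, 0.971 for mmu-mir-15a, 0.796 for mmu-mir-322 and 0.639 for mmu-mir-15b, beside a median of 0.694 over 267 miRNAs outside the family. As log2 percent of miRNA reads, r was 0.889, 0.84, 0.934, 0.166 and -0.234 in the same order, beside a median of -0.0577. The points share library depth and the miRNA share of each library, so these values describe likeness only.

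mmu-mir-15b was the member least like mmu-mir-16 on both scales. Mir15b and Mir16-2 lie in the same intron, but between 99.3% and 99.5% of mmu-mir-16 reads were annotated to both of its hairpins. Its level can therefore not be given to Mir16-2. Activated replicates 1 and 4 and control replicates 2 and 4 held between 1.80% and 2.24% mitochondrial rRNA, and the other 4 libraries between 7.11% and 8.35%. Each of these sets, which are not groups of the study, holds 2 activated and 2 control libraries. The number of mmu-mir-15b reads per mmu-mir-16 read was 0.167, 0.235, 0.176 and 0.212 in the set low in mitochondrial rRNA and 0.275, 0.381, 0.367 and 0.408 in the set high in it. The sets did not overlap, and the same held for 42 of the 272 other miRNA species tested (15.4%) in their ratio to mmu-mir-16, with mmu-mir-15b the only member among them. In RPM, 109 of 273 miRNA species (39.9%) separated the sets, all lower in the high set, among them every member except mmu-mir-15b. Its ratio to mmu-mir-15a also separated the sets, from 14.6 to 28.7 in the low set and from 33.6 to 49.6 in the high set. So did the ratio to mmu-mir-15b of 79 of 272 other miRNA species (29.0%), all lower in the high set. Every other member was among these. For mmu-mir-15b reads per mmu-mir-16 read, the activated and control means, 0.264 ± 0.0895 and 0.291 ± 0.114 (SD, n = 4), differed by less than the spread.

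mmu-mir-16 averaged 111452 RPM in the low set and 59182 RPM in the high set, while mmu-mir-15b averaged 21871 and 20327 RPM. The miRNA share of all reads separated the sets as well, from 33.2% to 47.1% in the low set and from 17.8% to 28.9% in the high set, and enters every RPM value. As a percentage of miRNA reads, mmu-mir-16 averaged 29.2% in the low set and 24.2% in the high set, and the sets overlapped. The overlap came from control replicate 4, at 21.7%. The other libraries of the low set lay between 29.8% and 33.1%, and the high set between 19.4% and 28.9%. On that scale mmu-mir-15b averaged 5.70% in the low set and 8.48% in the high set. Its sets did not overlap, from 4.59% to 6.99% in the low set and from 7.92% to 9.38% in the high set. On that scale it was the only member for which this held. How many miRNA species separate the sets as a percentage of miRNA reads was not counted. Within the sets, the ratio of activated to control means in RPM was 1.103 and 1.34 for mmu-mir-16 and 1.14 and 1.11 for mmu-mir-15b. For mmu-mir-322 it was 0.692 in the low set, which holds control replicate 4, and 1.57 in the high set. The part of mitochondrial rRNA or of other cells in these ratios was not tested.

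**Figure D5:**
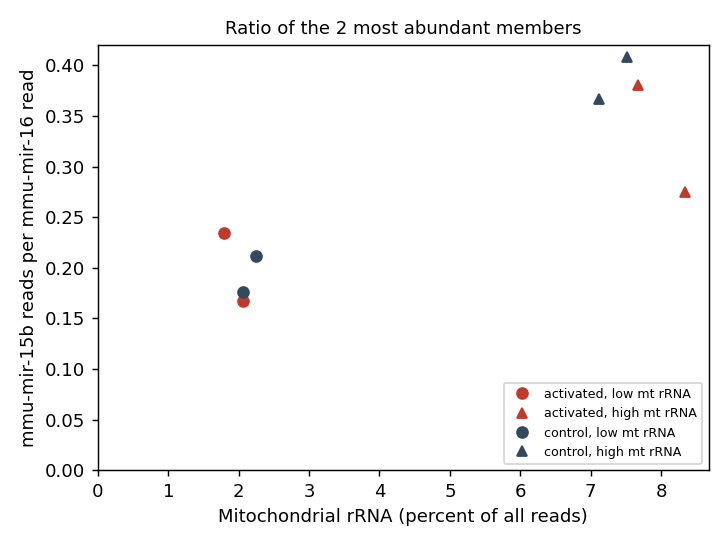
Number of mmu-mir-15b reads per mmu-mir-16 read against mitochondrial rRNA as a percent of all reads, 1 point per library, activated in red and control in dark blue. The 4 libraries low in mitochondrial rRNA lie between 0.167 and 0.235 and the 4 high in it between 0.275 and 0.408, with 2 libraries of each group in each set.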

How the data were processed

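The authors processed reads of 8 sperm small RNA libraries, made from 100 ng of RNA each, with SPORTS1.1 and Bowtie against mm10 and RNA databases, requiring perfect matches and keeping duplicates. They deposited counts, which give raw reads for each distinct sequence beside its annotation. The authors also deposited expected counts per annotation, where a read that fits several RNAs is split between them. Only the counts were tested. The expected counts of the members matched the summed counts within 0.5 reads in 46 of 48 cases and within 2 reads in all. Samples were grouped by the deposited labels, and each label stands for 1 library. The study's methods speak of biological replicates, and p-values measure the spread between these samples.

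Reads annotated only to a member, copy suffixes ignored, were summed per miRNA and length and scaled to the file total (RPM) or to a percentage of miRNA reads. A minimum of 50 counts in 4 or more samples was set. edgeR 4.0.16 with TMM scaling and its quasi-likelihood test ran in R 4.3.3 on RNA species and on single sequences, at a Benjamini-Hochberg adjusted p of 0.05, alone and with a log2 fold change beyond 1. DESeq2 1.42.0 with apeglm 1.24.0 was an alternative. For levels and shares, exact permutation tests (two-sided, 70 assignments) were adjusted over all miRNA species that could be tested. Python 3.11.15 was used with scipy 1.17.1, pandas 2.3.3 and numpy 2.4.6, and matplotlib 3.10.9 made the figures. Both count tests were tested on simulated data with planted log2 fold changes of 2 among RNA species and of 2 and 3 among single sequences. edgeR found most of those among RNA species. Among single sequences it found none at 2 and many at 3, a size added after that, so that a lack of calls among single sequences says little about changes as large as 2 on the log2 scale. DESeq2 found more of the planted sequences and also called more of the unplanted ones.

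Reads were placed on mature sequences by an exact overlap of at least 12 bases, and tails were defined as in the report. The search for tails and the tests of tail shares were added after seeing the data. All 6 members matched a mature sequence in the RefSeq table. Reads were not collapsed by molecular identifiers and can be copies of 1 molecule, so the spread between libraries was taken as the error. The text names all members, the neighbours and seed relatives with reads, the highest miRNAs of the marker lists with the others in their sums, the commonest sequence of each member, the 3 member sequences of lowest unadjusted p, and the 5 miRNAs most like mmu-mir-16 on each of 2 scales. The members and lists were chosen with earlier results of these data known. Alternatives were other scaling, count minimums of 10 and 1, genome-matched reads, a replicate block, a library set term, other denominators, mixed annotations, arms apart, tailed reads included, and leaving out each library.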

Additional observations from a re-analysis of the deposited data

How the results depend on the processing

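No alternative called a member or a member sequence. Over the 20 alternatives to the test of RNA species, edgeR called 0 species in 19 (48 at an unadjusted p under 0.05 with all libraries), and DESeq2 called 3. Of 120 refitted member fold changes, 115 kept their direction. mmu-mir-322 turned to 0.15 with a replicate block, to 0.046 with the library set as a term and to 0.62 without control replicate 4, and leaving out 1 library at a time gave -0.61 to 0.62 for it, -0.028 to 0.44 for mmu-mir-16 and -0.021 to 0.61 for mmu-mir-195a. With miRNA species only, mmu-mir-15b was at 0.020 in place of 0.20. In RPM, leave-one-out log2 ratios ran from -0.65 to 0.60 for mmu-mir-322 and from -0.0068 to 0.45 for mmu-mir-16, and mmu-mir-322 was at 0.65 within the set high in mitochondrial rRNA. The cause was not tested.

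The number of sequences called, 61 in the edgeR test, was the least stable count. Of the same 12077 sequences, DESeq2 called 248 and edgeR 107 with the library set as a term. Lower minimums tested many more sequences, with 202 of 56991 called at 10 counts and 2800 of 387985 at 1 count. None was called by edgeR with library size alone, with genome-matched sequences only (6761 tested) and with a replicate block. Leaving out 1 library gave 58 without control replicate 1, 30 without activated replicate 2 and 0 without any other. Samples of the same number were not paired, since their correlations were -0.507, 0.043, 0.525 and -0.113, and not every sample correlated best with its own number.

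At the commonest length, the log2 ratio as a percentage of own reads turned to -0.059 for mmu-mir-15b, -0.020 for mmu-mir-16 and 0.086 for mmu-mir-322, and leave-one-out values in RPM ran from -0.039 to 0.41 for mmu-mir-16 and from -0.73 to 0.71 for mmu-mir-322. The difference in exact mature share of mmu-mir-497a, -3.28 percentage points, ran from -4.11 to -1.86 on leaving out 1 library. The share of its 5p reads with the mature 5′ end, another quantity, differed by 0.777 percentage points. Leaving out 1 library, the difference in A tails of mmu-mir-497a ran from -0.167 to 1.61 percentage points. For U tails it ran from -1.33 to 1.45 for mmu-mir-15a, -0.022 to 0.104 for mmu-mir-15b, -0.108 to 0.0967 for mmu-mir-195a, -5.31 to 0.523 for mmu-mir-322 and -0.415 to 0.498 for mmu-mir-497a. C tails of mmu-mir-195a ran from -0.00502 to 0.0506, and G tails from -0.00798 to 0.00985 for mmu-mir-15a, -0.142 to 0 for mmu-mir-322 and -0.0415 to 0.00881 for mmu-mir-497a.

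These results limit what can be said: 4 libraries a group, standard errors of 0.24 to 0.63 on the log2 scale, 1 control library rich in markers of other cells, and tails that are seen only where they differ from the genome. Low members such as mmu-mir-322, with 87 reads in control replicate 3, are the least certain.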
